A study of Acipenser schrenckii with 5 samples.

Results

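The muscle and the heart of 1 Amur sturgeon (Acipenser schrenckii) were compared by their mature microRNAs (miRNAs), each tissue on 1 single-color µParaflo array. The pair was taken as the sample labelled Muscle and the sample labelled Heart, 2 of 5 arrays from the same fish of 5 months, and every one of the 663 miRNA probes on them was used. Liver, spleen and brain of the same fish served only to tell whether a miRNA was also seen outside striated muscle. The sources used here name neither the body site nor the fibre type of the muscle, nor the chamber of the heart. Each probe is complementary to a mature miRNA sequence, 615 of them to miRNAs of other fishes in miRBase and 48 to custom sequences from sturgeon, and is printed as 5 repeat spots. With 1 array per tissue there was no replicate, so no p-value was computed, errors are the SD over the 5 spots, and a difference between these arrays was called only as at least 2-fold.

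Skeletal and cardiac muscle are the 2 striated muscles of vertebrates. Both are known for a small group of miRNAs under the control of muscle transcription factors, the myomiRs. miR-1 and miR-133 are made from shared precursors and are classed with both muscles. miR-206, close in sequence to miR-1, is known from skeletal muscle, and miR-499 lies in an intron of a slow myosin heavy chain gene and is known from heart and slow muscle fibres. No probe was named for miR-208, which in mammals marks the heart. A mature miRNA recognises its targets mainly through the seed, its bases 2 to 8.

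The sequences on which the comparison turned are given 5′ to 3′ as the scanner files hold them, with the seed in capitals. The first set holds the myomiRs, shown because they separate into 3 patterns, from mostly muscle (miR-206) through both tissues (miR-1 and miR-133) to mostly heart (miR-499).
dre-miR-206: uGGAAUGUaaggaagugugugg
dre-miR-1: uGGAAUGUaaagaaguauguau
ipu-miR-1: aCAUACUUcuuuauaugcccaua
dre-miR-133a-3p: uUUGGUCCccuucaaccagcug
dre-miR-133c: uUUGGUCCcuuucaaccagcua
ipu-miR-133c: uUUGGUCCcuuucaaccagcu
ola-miR-133-5p: aGCUGGUAaaauggaaccaaauc
pol-miR-133-5p: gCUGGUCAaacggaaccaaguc
dre-miR-499: uUAAGACUugcagugauguuua
ola-miR-499: aACAUCACuuuaagucugugc
custom miR-499 probe: uUAAGACUugcagugauguuuac
Of these, dre-miR-206 and dre-miR-1 share their seed GGAAUGU, and the custom probe has the miR-499 sequence with 1 more base. The second set holds examples, chosen after their values were seen, of miRNAs outside the myomiRs that differed at least 2-fold under both scalings, the first 4 higher in muscle and the others lower in muscle.
ipu-miR-205: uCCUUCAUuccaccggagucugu
dre-miR-203a: gUGAAAUGuuuaggaccacuug
dre-miR-10b: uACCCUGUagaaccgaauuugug
custom miR-203-5p probe: aGUGGUUCuaaacaguucaaca
dre-miR-153a: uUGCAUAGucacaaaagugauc
ola-miR-150: aCUCCCAAuccuuguaccagu
dre-miR-29b: uAGCACCAuuugaaaucagugu
dre-miR-145: gUCCAGUUuucccaggaauccc

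A probe counted as detected when at least 50% of its spots cleared the nearby empty spots by over 3 SDs, the SD being that of all 361 empty spots, with a spot CV under 0.5. In muscle 431 probes were detected and in heart 345. Of these, 334 were detected in both tissues, 97 in muscle alone and 11 in heart alone, so 442 of 663 probes entered the comparison. The SD of the empty spots was 4.91 on the muscle array and 13.1 on the heart array. With the heart limit applied to both arrays, 346 probes were detected in muscle and 345 in heart, 304 of them in both, and with a robust SD of the empty spots 416 were detected in muscle and 412 in heart, 364 of them in both. Which probes counted as found in 1 tissue alone thus depended on the limit. The spots of a probe had a median CV of 10.8% in muscle and 6.63% in heart.

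Scaling between the arrays decided most calls, and 2 scalings are given throughout. Signal is the density after background correction, averaged over the 5 spots, in arbitrary units, and every ratio is muscle over heart. Without normalization between the arrays the median ratio of the 334 probes was 0.312 (log2 -1.68), a median of 3.21-fold higher Signal on the heart array. Cyclic loess, which pulls the bulk of probes to equal levels at each brightness, gave a median ratio of 0.971 (log2 -0.04). Controls did not settle the scale. The 4 reporters of 5S ribosomal RNA that were detected on both arrays had muscle over heart ratios between 0.737 and 1.66. Of the synthetic spikes detected on both arrays, the 15 with 3P or PM in their names had a median ratio of 0.734. These 15 ranged from 0.486 to 1.69. The other spikes detected on both arrays, left out of the spike factor used below, ranged from 0.518 to 2.72. Whether heart RNA held more miRNA per µg or its array was simply brighter cannot be told apart.

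With loess, 119 of 442 probes (26.9%) were at least 2-fold higher in muscle, 59 (13.3%) were at least 2-fold lower, and 209 (47.3%) were detected in both and within 2-fold. Without normalization 29 (6.56%) were higher in muscle, 236 (53.4%) lower and 98 (22.2%) within 2-fold. Under both scalings 29 probes (6.56%) were higher in muscle, 59 (13.3%) were lower and 38 (8.6%) were within 2-fold, whereas 316 (71.5%) depended on the scaling. The 29 belonged to 11 miRNA families and the 59 to 31. In 18 of the 29 and 11 of the 59 the miRNA was not detected in the other tissue, so its ratio is a bound. It was taken against the lowest Signal of any detected probe on the array that missed the miRNA, or against the probe's Signal on that array where this was higher. With 1 scaling factor from 5S rRNA 24 probes (5.43%) were higher in muscle, 261 (59%) lower and 74 (16.7%) within 2-fold, and with 1 factor from the spikes 42 (9.5%), 203 (45.9%) and 123 (27.8%). Under all 9 background corrections and scalings tried, 24 probes of 9 families were higher in muscle and 34 probes of 18 families were lower.

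**Figure D1:**
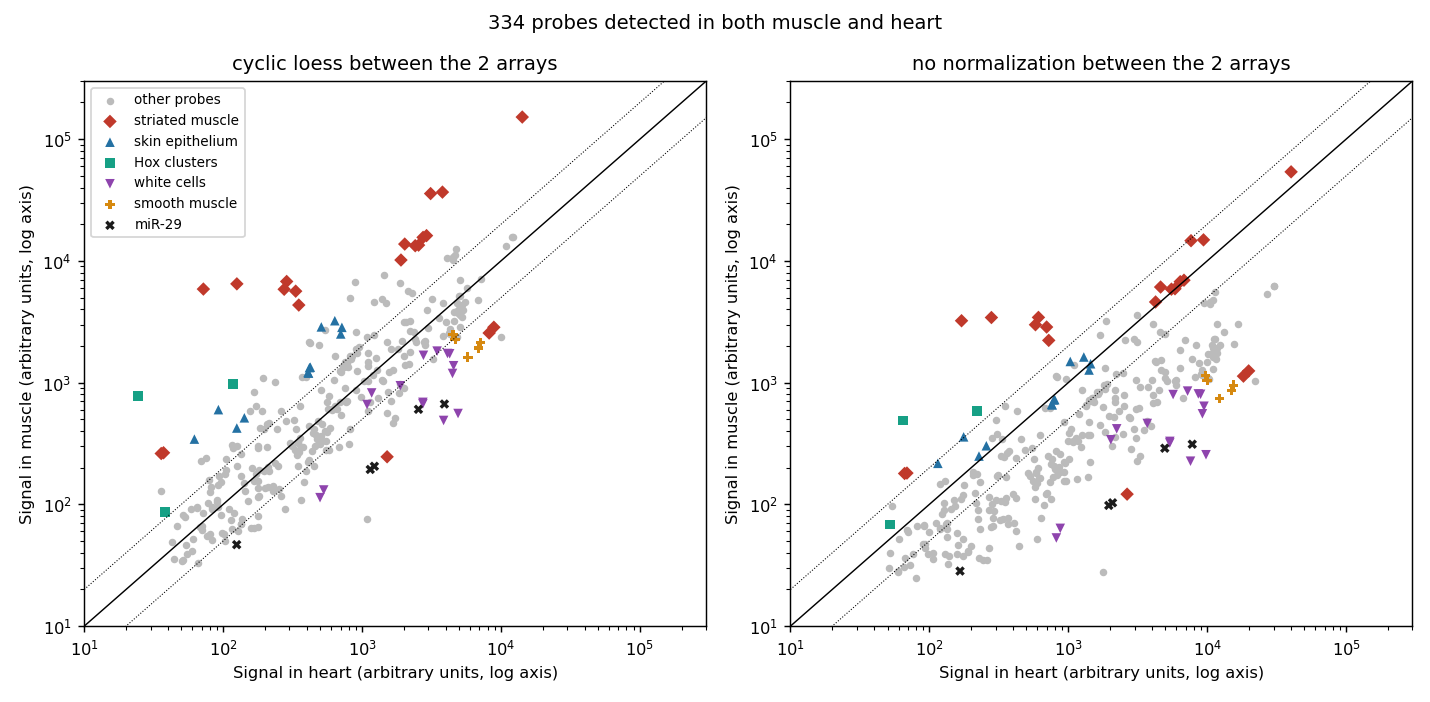
Signal in muscle (vertical log axis, arbitrary units) against Signal in heart (horizontal log axis, arbitrary units) for the 334 probes detected in both tissues, with loess on the left and without normalization on the right. The solid line is equal Signal and the dotted lines are 2-fold apart. Without normalization the bulk of probes lies below the line, with a median ratio of 0.312, whereas most striated muscle probes lie on or above it and the miR-499 probes lie far below it.

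The 22 probes of the striated muscle list (miR-1, miR-133, miR-206 and miR-499, all arms and copies) were all detected in muscle, and 20 of them in heart. With loess 18 were at least 2-fold higher in muscle and 3 lower, against 26.9% and 13.3% of all probes. Without normalization 8 were higher, 3 lower and 9 within 2-fold, against 6.56%, 53.4% and 22.2%. Their median log2 ratio over the probes detected in both was 2.85 with loess and 0.54 without normalization, which is 2.89 and 2.22 above the median of the 334 probes. Before normalization the list held 36.2% of the summed Signal of detected probes in muscle and 12.5% in heart, a share that a constant factor between the arrays does not move. A large part of this share came from pol-miR-133-5p, whose specificity for miR-133 was not tested. Its densities were 53920 in muscle and 40200 in heart, where Signal summed over the list was 140700 and 134600. In these bulk tissues, fewer cells of a type and less of a miRNA per cell cannot be told apart.

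Both tissues held miR-1. The dre-miR-1 probe had densities between 13720 and 15880 over the 5 muscle spots and between 8717 and 10084 over the 5 heart spots. By density it ranked 2 among the probes of the muscle array and 40 among those of the heart array. After loess its Signal was 36700 ± 2254 in muscle and 3788 ± 194 in heart, which gives a ratio of 9.69 ± 0.775. Without normalization the ratio was 1.58 ± 0.126, so miR-1 was higher in muscle under both, and at least 2-fold higher only with loess. The ola-miR-1-3p probe, 1 edit away, gave ratios of 11.5 ± 1.36 and 1.92 ± 0.218.

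The other arm of the miR-1 hairpin, the minor one in most animals, was at least 2-fold higher in muscle under both scalings. The ipu-miR-1 probe, which carries miR-1-5p, had Signal 262 ± 53.9 in muscle and 35.8 ± 3.97 in heart after loess, giving a ratio of 7.30 ± 1.71, and a ratio of 2.70 ± 0.537 without normalization. The ola-miR-1-5p probe gave 7.13 ± 1.44 and 2.62 ± 0.480. Neither probe was detected in liver, spleen or brain.

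miR-206 was the myomiR farthest apart in favour of muscle. The dre-miR-206 probe had densities between 3343 and 3722 over the muscle spots and between 303 and 333 over the heart spots, ranks 23 and 257. After loess its Signal was 6474 ± 336 in muscle and 125 ± 6.48 in heart, which gives a ratio of 51.6 ± 3.77, and without normalization the ratio was 12.3 ± 0.814. The ola-miR-206 probe, which differs from it by 1 edit, gave 81.4 ± 12.7 and 18.9 ± 2.54. miR-206 was detected in heart, and the dre-miR-206 probe was detected in the other 3 tissues too. miR-206 shares its seed with miR-1, and the ola-miR-206 and ola-miR-1-3p probes lie 3 edits apart, so how far miR-1 binds the miR-206 probes in heart was not tested. The opposite arm, pol-miR-206-5p, was detected in muscle alone with a density of 106.9, and its ratio was at least 1.97-fold with loess.

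miR-133-3p, the main arm of miR-133, was nearly as bright on one array as on the other before normalization. The dre-miR-133a-3p probe had densities between 5281 and 6741 over the muscle spots and between 5731 and 6247 over the heart spots, so that the spots of the arrays overlapped. Its ratio was 1.01 ± 0.0996 without normalization and 5.28 ± 0.545 after loess, where Signal was 13470 ± 1322 in muscle and 2551 ± 81.3 in heart. By rank within its own array it was 10 in muscle and 63 in heart. ccr-miR-133a-3p, dre-miR-133b-3p, ipu-miR-133b and ipu-miR-133c had ratios between 1.02 and 1.08 without normalization and between 5.33 and 5.68 after loess. For ola-miR-133-3p they were 1.32 ± 0.119 and 6.78 ± 0.599. Whether these miR-133-3p probes were level in the muscles or called higher in skeletal muscle therefore rested on the scaling alone.

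1 probe of this arm departed from the others. dre-miR-133c differs by 1 edit from ipu-miR-133c. Its spots had densities between 2037 and 2564 in muscle and between 622 and 915 in heart, with no overlap. Its ratio was 12.4 ± 2.41 after loess and 3.07 ± 0.589 without normalization, which makes it the only miR-133-3p probe at least 2-fold higher in muscle under both. It also differs by 1 edit from dre-miR-133b-3p, whose ratio without normalization was 1.06 ± 0.0894.

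The 5p arm of miR-133 separated the tissues. The ola-miR-133-5p probe had densities between 3438 and 3544 over the muscle spots and between 572 and 686 over the heart spots, ranks 22 and 208, with no overlap. Its ratio was 23.6 ± 1.90 after loess and 5.63 ± 0.438 without normalization. With the same seed, ccr-miR-133a-5p gave 21.3 ± 2.57 and 5.15 ± 0.595, and dre-miR-133a-5p gave 16.9 ± 2.40 and 4.10 ± 0.568. None of these 3 probes was detected in liver, spleen or brain. The probes for the arms of miR-133a thus differed in their ratio by a factor that the scaling did not remove. Before normalization it was 4.10 for dre-miR-133a-5p and 1.01 for dre-miR-133a-3p. The 3p probe lies 1 edit from dre-miR-133b-3p and from ipu-miR-133b. How far it also binds other miR-133 copies was not tested.

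pol-miR-133-5p stood apart from all other probes. It was the brightest probe on both arrays, with a density of 53920 in muscle and 40200 in heart, and was also detected in the other 3 tissues, unlike the other miR-133 5p probes. Its ratio was 10.7 ± 0.796 after loess and 1.34 ± 0.102 without normalization. dre-miR-133b-5p, 1 edit away and with the same seed, had a density of 146.7 in muscle and was not detected in heart, for a ratio of at least 4.09-fold after loess and at least 1.66-fold without normalization. How specific the bright probe is for miR-133 was not tested.

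miR-499 was the myomiR that went the other way. The dre-miR-499 probe had densities between 1057 and 1386 over the muscle spots and between 11335 and 20436 over the heart spots, ranks 80 and 7. After loess its Signal was 2555 ± 328 in muscle and 8214 ± 1663 in heart, which gives a ratio of 0.311 ± 0.0746, and without normalization the ratio was 0.0620 ± 0.0151, so that heart was higher by 3.22 ± 0.771-fold and 16.1 ± 3.93-fold. The wide spread in heart came from 1 dim spot. ipu-miR-499, whose heart spots lay between 19721 and 20124, gave nearly the same ratios, 0.321 ± 0.0638 and 0.0628 ± 0.0120. The opposite arm, ola-miR-499, was farther apart, with Signal 246 ± 36.6 in muscle and 1514 ± 60.8 in heart after loess, giving a ratio of 0.162 ± 0.0250, and 0.0458 ± 0.0075 without normalization.

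The custom miR-499 probe was 1 of 6 custom probes at least 2-fold lower in muscle under both scalings, with a density of 1095 in muscle and 22250 in heart, ranks 92 and 5. Its ratio was 0.237 ± 0.0237 after loess and 0.0466 ± 0.0047 without normalization. miR-499 was detected in muscle by all 4 probes, at a level well above the empty spots (median density 69.8).

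**Figure D2:**
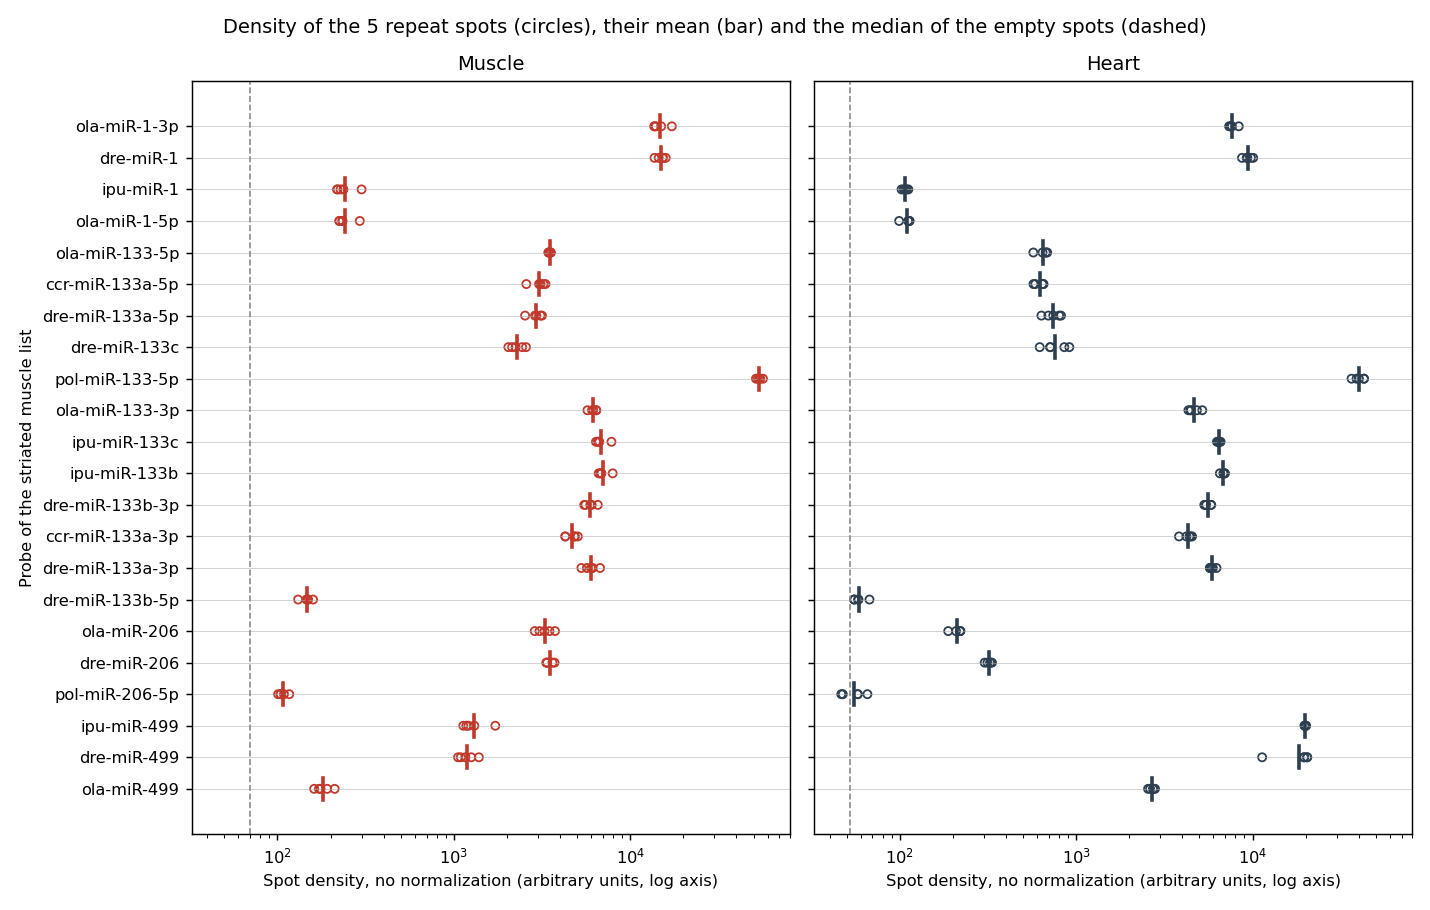
Density of each of the 5 repeat spots (circles) and their mean (bar) for the 22 probes of the striated muscle list, before normalization, on a log axis in arbitrary units, with muscle on the left and heart on the right. The dashed line is the median of the empty spots, 69.8 in muscle and 52 in heart. The miR-499 probes are brighter in heart, and the miR-206 and miR-133-5p probes of one seed are brighter in muscle. The miR-133-3p probes are nearly level except dre-miR-133c, which is brighter in muscle.

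By detection, 10 of the 334 probes found in muscle and heart were found in none of the other 3 tissues. 7 of them were myomiRs, namely ipu-miR-1, ola-miR-1-5p, dre-miR-133a-5p, ccr-miR-133a-5p, ola-miR-133-5p, ipu-miR-499 and ola-miR-499. The others were dre-miR-429b, ola-miR-101b-5p and 1 custom probe, all with Signal of 344 or less in muscle and 168 or less in heart. These 7 were a part of the 20 striated muscle probes detected in both. The rest of the 20, among them dre-miR-1, the miR-133-3p probes and dre-miR-499, were also detected in liver, spleen or brain. Of the 431 probes detected in muscle, 44 were detected in none of the other tissues, and of the 345 in heart 0. The muscle array had the lowest SD of empty spots of the 5, 4.91, against 13.1 on the heart array, so a dim miRNA could be detected in muscle alone. The count of 44 was not redone with 1 limit for all arrays. The liver array had the highest SD of empty spots, 58.5, so a dim miRNA could be missed there.

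Among all probes, myomiRs included, the brightest differed between the arrays. Of the 20 brightest probes of each array, 5 were shared (25% of each list), namely pol-miR-133-5p, dre-miR-26a, dre-miR-26b, hhi-miR-26 and dre-miR-462. Of the brightest 50, 22 were shared (44%), and of the brightest 100, 72 (72%). miR-26, a broadly expressed family, was bright in both: dre-miR-26a had a density of 6316 in muscle and 30420 in heart, ranks 7 and 2. Its ratio was 1.30 ± 0.111 after loess and 0.206 ± 0.0171 without normalization. Across the 334 probes the log2 Signal of the arrays had a Pearson correlation of 0.798 and a Spearman correlation of 0.809 before normalization, given as a description since the probes include near-identical copies.

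Few probes could be called level whatever the scaling. The scalings lie about 3-fold apart for the bulk of probes, so few probes could be within 2-fold under both, and there were 38. The brightest, which lay near the edge under both, were dre-miR-22b, with Signal 1648 ± 179 in muscle and 843 ± 37.4 in heart after loess, dre-miR-24 with 1467 ± 152 and 755 ± 23.3, and ola-miR-140-3p with 1381 ± 43.8 and 734 ± 81.3. Their ratios were 1.96 ± 0.230, 1.94 ± 0.210 and 1.88 ± 0.217 after loess, and 0.505 ± 0.0579, 0.513 ± 0.0537 and 0.503 ± 0.0600 without normalization. The other 7 families named by the same rule, dre-miR-181b, fru-miR-152, ola-miR-455-3p, ola-miR-144, dre-miR-365, dre-miR-129-5p and ccr-miR-454b, had ratios between 1.55 and 1.92 after loess and between 0.519 and 0.654 without normalization. For dre-miR-129-5p the spots in heart ranged from 122.9 to 567, and its ratio of 1.65 ± 1.03 is not informative.

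The miRNAs farthest apart in favour of muscle were not myomiRs but miRNAs known from skin and other epithelia. miR-205 and miR-203 are keratinocyte miRNAs in mammals. The ipu-miR-205 probe had densities between 6450 and 7567 over the muscle spots and between 54.3 and 72.5 over the heart spots, where the median of empty spots was 52. It was rank 5 in muscle and not detected in heart, for a ratio of at least 493-fold after loess and at least 133-fold without normalization. dre-miR-205 gave at least 330-fold and at least 91.9-fold. Another miR-205 probe, ola-miR-205, was dim in muscle, with a density of 100.9, and was at least 2-fold higher under neither scaling. dre-miR-203a, with densities between 3893 and 4661 in muscle and between 74.4 and 87.4 in heart, gave at least 292-fold and at least 80.8-fold, and dre-miR-203b-3p at least 230-fold and at least 65.4-fold.

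Of the 22 probes on the skin epithelium list (miR-203, miR-205, miR-200, miR-141 and miR-429), 21 were detected in muscle and 12 in heart. With loess 19 were at least 2-fold higher in muscle, and without normalization 7, with 0 lower under either. Among all 442 tested probes 26.9% and 6.56% were higher. Probes not detected in heart could not be called lower. The list held 7.51% of the summed Signal of detected probes in muscle and 0.841% in heart. dre-miR-141 and the 7 miR-200 probes were detected in heart too, and had ratios between 2.91 and 5.64 after loess and between 0.856 and 1.44 without normalization. The 4 miR-429 probes, also detected in heart, had ratios between 3.38 and 6.49 after loess and between 1.10 and 2.03 without normalization. The highest of them, ipu-miR-429b, was at least 2-fold higher in muscle under both scalings, with Signal 600 ± 77.1 in muscle and 92.4 ± 2.95 in heart after loess, but with 1 factor from 5S rRNA its ratio was 1.73. The custom miR-203-5p probe was detected in muscle alone of the 5 tissues, with a density of 238.1. Its ratio was at least 9.23-fold after loess and at least 3.43-fold without normalization. It lies 1 edit from ipu-miR-203a and 1 edit from dre-miR-203b-5p, which was detected in neither muscle nor heart. These epithelial miRNAs lay in the same muscle sample as the myomiRs, and whether the sample held skin was not tested.

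miR-10 was the next family. It is encoded within the Hox gene clusters, as is miR-196, and in vertebrates both follow position along the body axis. 16 of the 19 Hox cluster probes were detected in muscle and 3 in heart. The dre-miR-10b probe had densities between 1033 and 1338 over the muscle spots and between 73.2 and 99.7 over the heart spots, a ratio of at least 77.6-fold after loess and at least 22.5-fold without normalization. All 8 probes with the seed ACCCUGU, which are near-identical copies, were at least 2-fold higher in muscle under both scalings, against 6.56% of all probes. Among them only dre-miR-10a-5p and fru-miR-10d were detected in heart. The others entered through detection in muscle alone, so they could not be called lower. dre-miR-10a-5p had Signal 780 ± 102 in muscle and was detected in heart at 24.3 ± 8.20. The miR-196 probes were dim, with densities between 92.7 and 133 in muscle and between 60.1 and 93.0 in heart, and none was at least 2-fold higher under both.

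Probes for miR-375, miR-96 and miR-182 were also at least 2-fold higher in muscle under both scalings, and were dim there and not detected in heart. This held for 2 of 2 tested probes of miR-375 and of miR-96, but for 1 of 3 of miR-182, against 6.56% of all probes. These miR-375, miR-96 and miR-182 probes entered through detection in muscle alone, so none could be called lower. The others of miR-182, ccr-miR-182-5p and dre-miR-182-5p, had bounds of 1.95-fold and 1.61-fold without normalization. The ipu-miR-375 probe, for a miRNA of pancreatic islets, had a density of 299 in muscle and gave a ratio of at least 14.0-fold after loess and at least 4.61-fold without normalization. The other 2 pancreas miRNAs on the array, miR-216 and miR-217, had muscle densities of at most 97.6, and none of their probes was at least 2-fold higher. hhi-miR-96 and hhi-miR-182, of a cluster known from sensory cells, gave at least 7.06-fold and at least 5.73-fold after loess, and at least 2.70-fold and at least 2.24-fold without normalization. With 1 factor from 5S rRNA the bound for hhi-miR-182 was 1.91-fold. Probes for miR-183, of the same cluster, were also detected in muscle and not in heart. None of them was at least 2-fold higher without normalization. Their log2 bounds then lay 2.01 to 2.27 above the median of the 334 probes, which was -1.68. Of the 8 tested probes on the liver list, none detected in heart, 5 were at least 2-fold higher in muscle with loess and 0 without normalization. Among all probes 26.9% and 6.56% were higher. These 8 entered through detection in muscle alone, so none could be called lower. Their muscle densities were between 85.2 and 141, where the median of the empty spots was 69.8. The liver miRNA miR-122 was at densities of 104.3 and 109.2 in muscle and was not detected in heart.

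Besides miR-499, the miRNAs lower in muscle than in heart under both scalings included many known from cells other than myocytes. By number of probes, the white cell list had the most among the lists, which differ in size. Of 17 tested probes on this list (miR-142, miR-146, miR-150, miR-155 and miR-223), 10 were at least 2-fold lower in muscle with loess, 15 without normalization and 0 higher under either. For all 442 probes the shares lower were 13.3% with loess and 53.4% without normalization. The median log2 ratio of the 15 detected in both tissues was -1.73 after loess and -3.78 without normalization, 1.68 and 2.10 below the median of the 334 probes. The list held 1.79% of the summed Signal in muscle and 8.07% in heart.

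The miRNA of lymphocytes, miR-150, was the farthest apart of them. The ola-miR-150 probe had densities between 290 and 359 over the muscle spots and between 9351 and 10018 over the heart spots, ranks 199 and 36. Its ratio was 0.114 ± 0.0133 after loess and 0.0261 ± 0.0032 without normalization, which makes heart higher by 8.80 ± 1.03-fold and 38.3 ± 4.68-fold. dre-miR-155 had ratios of 0.228 ± 0.0354 and 0.0646 ± 0.0121, dre-miR-146a 0.244 ± 0.0178 and 0.0594 ± 0.0044, and ccr-miR-142-3p, found throughout blood cells, 0.266 ± 0.0272 and 0.0601 ± 0.0063. The miR-223 probes, for a granulocyte miRNA, were closer to level after loess, between 0.607 and 0.702.

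By the median of their probes, 5 of them for miR-144 and 1 for miR-451, red cell miRNAs lay about the median of all probes. The 6 probes for miR-144 and miR-451 had a median log2 ratio of -0.05 after loess and -1.70 without normalization, which is the median of the 334 probes to within 0.01. dre-miR-451 had Signal 7044 ± 785 in muscle and 7178 ± 302 in heart after loess, giving a ratio of 0.981 ± 0.117, and 0.179 ± 0.0206 without normalization. Its log2 ratio without normalization was 0.80 below the median of the 334 probes. The list held 0.996% of the summed Signal of detected probes in muscle and 1.80% in heart before normalization. Single probes of both kinds overlapped, since ccr-miR-144 had a ratio of 0.629 ± 0.136 after loess, within the range of the miR-223 probes.

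Vessel miRNAs were lower in muscle as well. All 5 smooth muscle probes were at least 2-fold lower without normalization, and 4 with loess, against 53.4% and 13.3% of all probes. The miR-145 probes, a smooth muscle miRNA, had densities between 802 and 1014 in muscle and between 12270 and 15470 in heart, with ratios between 0.279 and 0.300 after loess and between 0.0582 and 0.0618 without normalization. For dre-miR-143, made from the same precursor as miR-145 in mammals, the ratio was 0.485 ± 0.0241 and 0.104 ± 0.0053. The endothelial miRNA miR-126 had 5 probes with ratios between 0.451 and 0.588 after loess, 3 of them at least 2-fold lower in muscle, and between 0.105 and 0.126 without normalization. The part of vessel and blood cells in the difference between the tissues was not tested.

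miR-29, which in mammals restrains collagen and other matrix genes, was at least 2-fold lower in muscle in all 6 tested probes under both scalings. Of the 6, 5 were detected in both tissues. ipu-miR-29c was detected in heart and not in muscle, so it could not be called higher, and its bound was at the threshold (0.5 after loess). Some of the probes are near-identical, with dre-miR-29a within 3 edits of dre-miR-29b, ccr-miR-29b and ola-miR-29a. Across all probes 13.3% were lower under both. dre-miR-29b had densities between 338 and 413 over the muscle spots and between 7227 and 8415 over the heart spots, and ratios of 0.171 ± 0.0183 after loess and 0.0400 ± 0.0044 without normalization. dre-miR-29a gave 0.168 ± 0.0163 and 0.0495 ± 0.0052. Among 7 miR-101 probes 4 were lower under both, with ratios for dre-miR-101a of 0.295 ± 0.0266 and 0.0772 ± 0.0071.

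The mesenchyme miRNAs lay on the other side of the median of the 334 probes from miR-29. Their own median log2 ratio was 1.13 after loess and -0.90 without normalization, so its direction turned with the scaling. None of the 19 tested probes for miR-199, miR-214, miR-140 and miR-455 was at least 2-fold lower in muscle after loess and 11 were higher. Without normalization 0 were higher, 2 lower and 17 within 2-fold, and the 19 probes all lay above the median of the 334 probes under both scalings. For all probes, 26.9% were higher and 13.3% lower after loess. Without normalization 6.56% were higher, 53.4% lower and 22.2% within 2-fold. dre-miR-214, made from the same transcript as miR-199 in mammals, had Signal 5000 ± 251 in muscle and 816 ± 31.7 in heart after loess, giving a ratio of 6.13 ± 0.389, and 1.43 ± 0.0896 without normalization. The direction of dre-miR-199-5p turned with the scaling, with 2.65 ± 0.270 after loess and 0.565 ± 0.0557 without normalization.

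**Figure D3:**
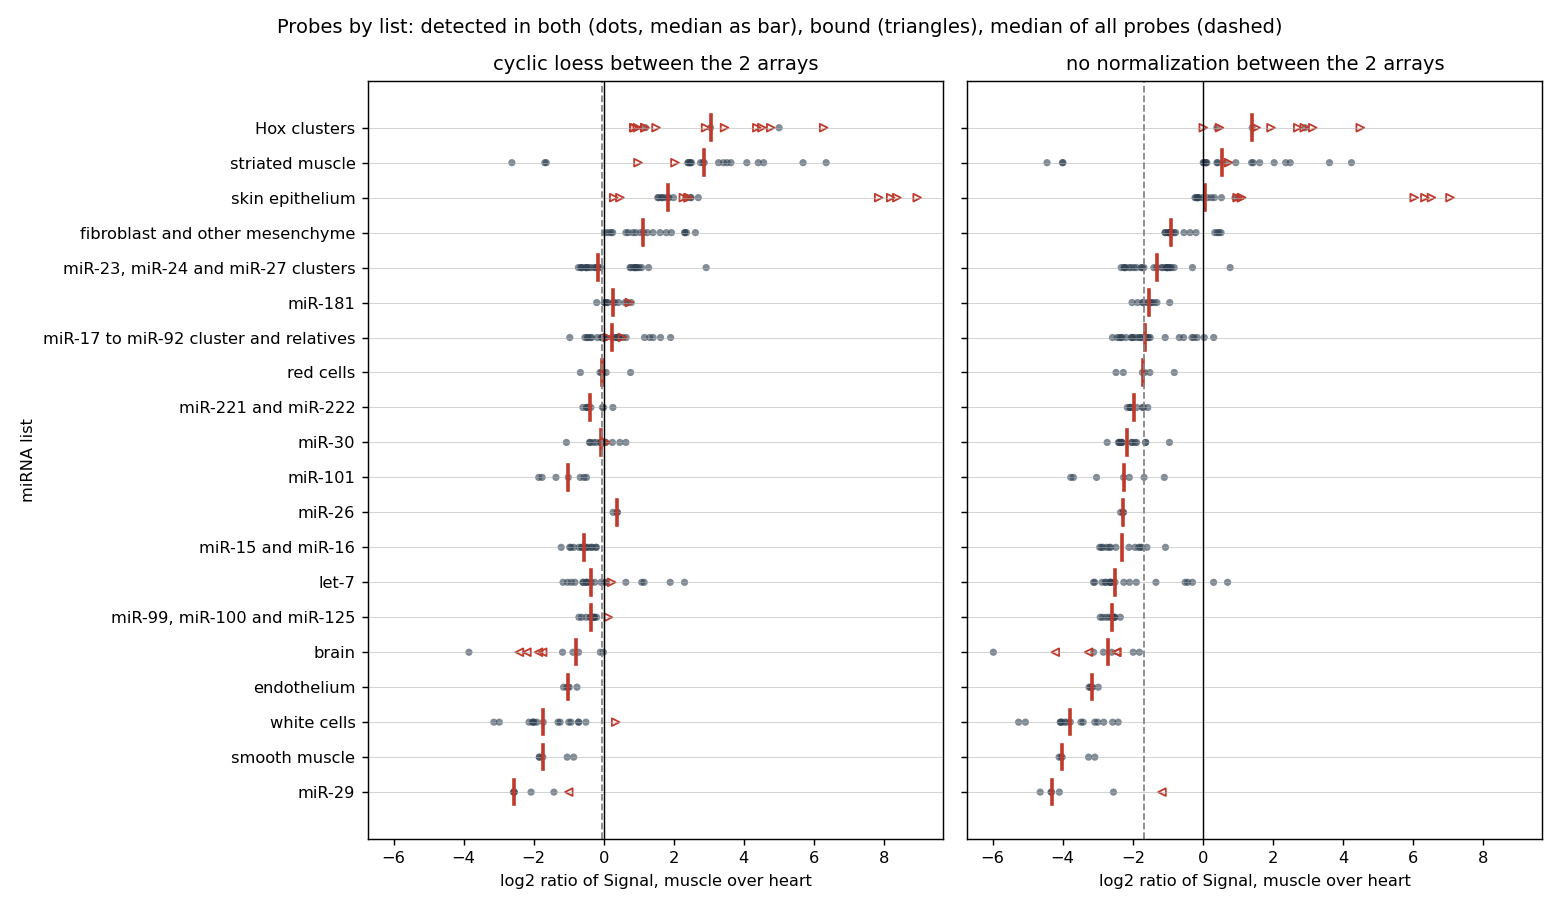
The log2 ratio of Signal, muscle over heart (horizontal axis), for the probes of each miRNA list (rows), with loess on the left and without normalization on the right. Dots are probes detected in both tissues, red bars their median, triangles bounds for probes not detected in 1 tissue, and the dashed line is the median of all 334 probes, -0.04 and -1.68. The medians of the Hox cluster, striated muscle and skin epithelium lists lie to the right of the dashed line in both panels, although the miR-499 probes of the striated muscle list lie to the left, and the medians of the miR-29, smooth muscle and white cell lists lie to the left of it.

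A few miRNAs known from neurons were lower in muscle too. dre-miR-153a had the lowest ratio of all probes detected in both, with densities between 78.9 and 101 over the muscle spots and between 1348 and 2035 over the heart spots. In muscle it was thus near the median of the empty spots, 69.8. Its ratio was 0.0694 ± 0.0175 after loess and 0.0158 ± 0.0057 without normalization. Its size also moved with the background correction, to 0.0260 ± 0.0135 with plain subtraction and loess. dre-miR-9-5p and dre-miR-129-3p were not detected in muscle but were in heart, with heart at least 5.31-fold and at least 4.03-fold higher after loess, and at least 18.6-fold and at least 5.64-fold higher without normalization. For dre-miR-129-3p the 2-fold call was lost with cyclic loess over 5 arrays, with a ratio of 0.710, and with equal medians, with 0.508. The other 2 of 3 tested miR-129 probes, dre-miR-129-5p and ccr-miR-129, were within 2-fold under both scalings. For ccr-miR-129 the ratios were 1.14 after loess and 0.537 without normalization. Of the 11 tested probes on the brain list, which does not hold miR-129, 6 were at least 2-fold lower in muscle under both scalings, against 13.3% of all probes. Among these 6, the 3 miR-9 probes and dre-miR-153c entered through detection in heart and not in muscle, so they could not be called higher. Other members were nearer to level after loess. The miR-338 probes had ratios of 0.934 and 0.993, and the 3 miR-128 probes between 0.442 and 0.607. miR-124, a defining neuronal miRNA, had 1 tested probe, with a density of 86.9 in muscle, where it was detected, and 88.2 in heart, where it was not.

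After loess, several other families had medians within 0.53 of the median log2 ratio of the 334 probes, and without normalization some lay farther from it. Over the probes detected in both tissues, the 27 of the miR-17 to miR-92 cluster and its relatives had median log2 ratios of 0.23 after loess and -1.65 without normalization, the 11 of miR-181 0.27 and -1.54, the 8 of miR-221 and miR-222 -0.40 and -1.97, and the 14 of miR-30 -0.08 and -2.17. Medians were -0.57 and -2.30 for the 14 probes of miR-15 and miR-16, and -0.36 and -2.59 for the 10 of miR-99, miR-100 and miR-125. Without normalization the median of these 10 lay 0.91 below that of the 334 probes, and the let-7 median 0.83 below it. The let-7 family was spread, with 13 of 20 tested probes within 2-fold after loess, 4 higher and 2 lower. The shares of all probes were 47.3%, 26.9% and 13.3%. In it ccr-let-7i, at 4.94 after loess and 1.63 without normalization, and dre-let-7a, at 0.668 ± 0.0820 and 0.136 ± 0.0163, lay on opposite sides. In the group of miR-23, miR-24 and miR-27, ola-miR-24b-3p reached 7.58 ± 0.584 and 1.72 ± 0.129, with the other 24 tested probes at 2.43 or less after loess.

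**Figure D4:**
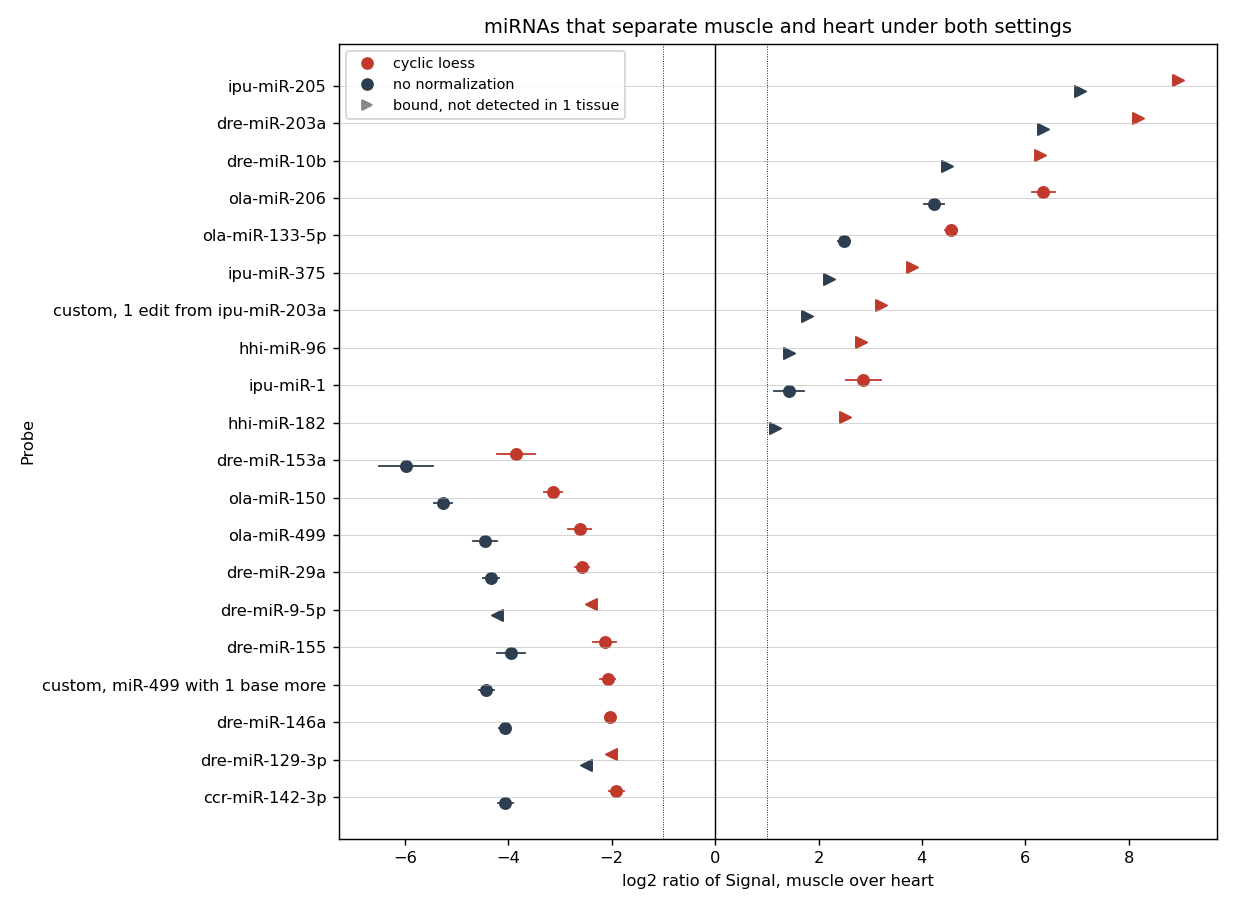
The log2 ratio of Signal, muscle over heart (horizontal axis), for 1 probe of each of the 10 families farthest apart in each direction under both scalings, in red with loess and in dark blue without normalization. Circles carry the SD over the spots, triangles are bounds for a miRNA not detected in 1 tissue, and dotted lines mark 2-fold. ipu-miR-205, at least 133-fold without normalization, is at the top, and dre-miR-153a, with ratios of 0.0694 and 0.0158, lies farthest to the left.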

How the data were processed

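Per the methods, total RNA of each tissue of 1 fish was tailed, tagged, labelled with Cy3 and hybridized to a µParaflo chip, scanned with a GenePix scanner and digitized with Array-Pro. The labels name the miRNeasy kit and 2 to 5 µg of RNA, the methods RNAiso reagent and 4 µg. For each array the authors deposited the raw intensity of every spot (the median of its pixel densities) and the SD of those pixels, before background subtraction and normalization, in arbitrary units. Commas within numbers were removed on reading. The authors' processed table, made by background subtraction and LOWESS, was not used, since its row names did not match the scanner reporters.

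Background was corrected by normexp (limma 3.58.1, R 4.3.3, offset 50, fitted on all spots), because the files give no local background. The arrays were left as they were or normalized by cyclic loess (3 iterations, log2, 3315 probe spots of the 2 arrays), and the offset was taken off. Signal is the mean over 5 spots. Its SD is technical, and the number of arrays limits the precision. A detected spot stood over the median of the 20 nearest empty spots. Errors of ratios propagate the spot SDs. Tables used Python 3.11.15, numpy 2.4.6 and pandas 2.3.3. Steps were tested on simulated data. Sequences and probe names are those of the scanner files, and no genome was used.

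The tissues, the miRNA lists and the tests were chosen with earlier results of these data known. Named were all probes of the striated muscle list, 1 probe of each of the 10 families with the largest smaller fold in each direction under both scalings, the 10 brightest families within 2-fold under both, and examples per list. The list examples, the contrasts between arms and the near-identical probes were chosen after their values were seen.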

Additional observations from a re-analysis of the deposited data

How the results depend on the processing

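The counts of probes higher in muscle, lower in muscle and within 2-fold, 119, 59 and 209 with loess over the 2 arrays, depended on the scaling. They were 29, 236 and 98 without normalization, 24, 261 and 74 with 1 factor from 5S rRNA, and 42, 203 and 123 with 1 factor from the spikes, an alternative chosen after seeing the data. Quantile normalization gave 78 higher and 104 lower. With the offset kept 39 were lower. A fold of 1.5 gave 100 lower and 133 within, a fold of 4 gave 55 higher and 15 lower, and with no detection filter 472 were within 2-fold, since undetected probes were then counted. Loess over 5 arrays, equal medians, plain subtraction, the median over spots and detection limits from 5 SD, a robust SD or the heart array (the last chosen after seeing the data) kept all 3 counts within 1.5 times. Among the 53 ratios of named probes and list examples that were at least 2-fold apart with loess, those that crossed 1 were, without normalization, 0.565 for dre-miR-199-5p and 0.535 for ccr-miR-23a, with the spike factor 0.770 and 0.730, and with the 5S factor 0.482 and 0.457. With the 5S factor ccr-miR-133a-3p was also at 0.923, dre-miR-133a-3p at 0.859, dre-miR-133b-3p at 0.904, ipu-miR-133b at 0.870 and ipu-miR-133c at 0.901. Of these 53, 7 crossed 1, and crossings by ratios within 2-fold with loess were not counted. No paired analysis was possible because each tissue had 1 array.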

Other observations

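Among the 48 custom probes, 23 were detected in at least 1 of the 2 tissues. Under both scalings 1 was at least 2-fold higher in muscle, the miR-203-5p probe, 6 were lower, 1 was within 2-fold and 15 depended on the scaling. The shares of all 442 tested probes were 6.56%, 13.3%, 8.6% and 71.5%.

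Some probes had 1 of 5 spots far from the rest. dre-miR-462 had Signal 12620 ± 1304 in muscle and 4746 ± 2544 in heart after loess, and its heart spots were 1 at a density of 503 and the others at 13454 or more. In muscle ola-miR-92a had 1 spot at 175.5 and the others at 759 or more, and ola-let-7e 1 spot at 89.4 and the others at 528 or more. In heart ola-miR-29a had 1 spot at 302 and the others at 2298 or more, and ola-miR-200a 1 spot at 148.2 and the others at 1155 or more.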
